A study of Mus musculus with 13 samples.

Results

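The muscle transcripts of Nrep, Dupd1 and Igfn1 were followed mouse by mouse in gastrocnemius muscle. These 3 of the 21868 genes of the expression table were chosen by their normalized counts, which shifted by very large amounts between treatment groups in these same data, so the differences between groups that follow are descriptions and carry no test. All 3 were among the 12303 genes with a mean normalized count of at least 10, the genes used for every comparison across genes. RNA-seq was performed on whole gastrocnemius, a calf muscle, from 13 male C57BL/6 mice (C57BL/6N where the study describes its RNA-seq) in 3 treatment groups. All mice were 7 weeks old on arrival, acclimatized for a week, ate a diet with 60 kcal% fat for 15 to 17 weeks and were then moved to chow, so the control group had also been obese and changed diet. For the next 3 weeks, mice 1 to 5 received vehicle (phosphate-buffered saline), mice 13 to 17 received semaglutide, a glucagon-like peptide-1 receptor agonist, at 30 nM/kg/day intraperitoneally, and mice 19, 21 and 22 received the same semaglutide dose and drank water containing 0.114 g/mL of a ketone ester. The ketone ester is broken down to products that the body converts to the ketone body β-hydroxybutyrate. No group received the ketone ester without semaglutide, so its own contribution cannot be told apart from its combination with the drug.

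The 3 genes have different known roles in muscle. Nrep (neuronal regeneration related protein, also called P311) encodes a small intracellular protein of regenerating neurons, smooth muscle and myofibroblasts that binds the translation initiation factor subunit EIF3B and promotes translation of the transforming growth factor β (TGF-β) ligands. Dupd1, also called Dusp29, encodes an atypical dual-specificity phosphatase that is enriched in skeletal muscle and acts on mitogen-activated protein (MAP) kinase signaling. Igfn1 (immunoglobulin-like and fibronectin type III domain containing 1) encodes a sarcomeric protein of the Z-disc, the boundary of the contractile unit, that was found as a partner of KY, the protein lost in the kyphoscoliotic mouse, and of filamin C.

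Each gene lies on the minus strand of its chromosome, and no exon of another annotated gene overlapped its exons in GENCODE vM21 on GRCm38, the assembly that mm10 names. Nrep has 3908 bases of exon sequence. Dupd1 (ENSMUSG00000063821.6) spans chr14:21676537-21714576 with 1242 exonic bases. Igfn1 (ENSMUSG00000051985.12) is the longest, spanning chr1:135953578-136006342 with 8996 exonic bases. Because Nrep and Dupd1 moved together across mice while Igfn1 tended to run against them, the 250 bases before the RefSeq start of Dupd1 and Igfn1 (GRCm38.p6, minus strand) are set side by side. Capitals mark letters that matched 1 of 7 motifs searched on both strands.
Dupd1, chr14:21714577-21714826: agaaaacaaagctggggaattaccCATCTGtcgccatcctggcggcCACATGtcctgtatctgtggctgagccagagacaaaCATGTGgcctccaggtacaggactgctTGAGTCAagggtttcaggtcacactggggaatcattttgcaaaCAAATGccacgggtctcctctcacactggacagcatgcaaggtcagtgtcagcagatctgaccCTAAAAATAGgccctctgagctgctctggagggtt
Igfn1, chr1:136006343-136006592: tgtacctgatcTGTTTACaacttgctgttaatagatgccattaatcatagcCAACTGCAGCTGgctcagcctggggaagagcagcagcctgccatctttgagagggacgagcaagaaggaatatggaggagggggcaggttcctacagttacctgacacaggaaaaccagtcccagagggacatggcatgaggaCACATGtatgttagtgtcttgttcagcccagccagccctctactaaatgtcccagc

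The 250 bases before Dupd1 held 4 E-boxes (CANNTG, the letters that basic helix-loop-helix factors such as MyoD read), as against 3 before Igfn1, and 66.2% of 32851 RefSeq promoters held at least 1. The E-box form CAGCTG, which is also counted as an E-box, occurred once before Igfn1 and was not matched before Dupd1, and 13.0% of promoters held it. A match to the MEF2 motif, named for the myocyte enhancer factor 2 family, lay 35 to 26 bases before the Dupd1 start and was found in 2.92% of promoters. An AP-1 motif (TGANTCA) lay 141 to 135 bases before the Dupd1 start and was found in 6.75% of promoters. The Igfn1 region held the FoxO motif GTAAACA once, read on the opposite strand 239 to 233 bases before the start, a motif in 3.17% of promoters. Neither region held the glucocorticoid receptor motif (0.387% of promoters) or TATAAA (12.4% of promoters). These matches describe letters in a window and say nothing of binding.

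The values are counts of reads that the authors normalized between libraries and deposited. The libraries held from 15319471 to 23498162 reads on genes, with medians of 16501686 for vehicle, 16295209 for semaglutide and 16845327 for semaglutide + ketone ester. The median difference over all genes was within 0.01 log2 units of 0 in each comparison. When columns were instead rescaled to equal totals, that median moved to 0.17 for semaglutide against vehicle and to -0.23 for semaglutide + ketone ester against semaglutide, so differences are relative to the authors' scaling. All 10 skeletal muscle fibre markers were well detected in every group. Semaglutide mouse 13 stood apart from the other 4 semaglutide mice in several genes described here, so values are also given without it. Where nothing says that mice came from separate litters or cages, the spread between mice is the only error available.

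Nrep (ENSMUSG00000042834.15, chr18:33437019-33464029) was the most uniform of the 3 genes in control muscle. Its normalized counts in the vehicle mice were 1245, 1409, 1414, 1158 and 1096 in mice 1 to 5. In the semaglutide mice they were 633, 63.1, 45.5, 47.6 and 49.2 in mice 13 to 17. With semaglutide + ketone ester they were 1154, 2574 and 2105 in mice 19, 21 and 22. Every semaglutide mouse lay below every vehicle mouse and every ketone ester mouse, while the ketone ester mice overlapped the vehicle mice through mouse 19. On the log2 scale mouse 13 sat nearer to the control mice than to the other semaglutide mice, whose counts spanned only 1.39-fold. Those 4 counts rested on 41 to 66 reads, and the 95% Poisson interval of the lowest, mouse 15, ran from 32.7 to 61.8 normalized counts, which covers counting error only and contains the values of mice 16 and 17.

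Group means of Nrep were 1264 ± 145 (SD, n = 5) for vehicle, 168 ± 260 (SD, n = 5) for semaglutide and 1944 ± 724 (SD, n = 3) for semaglutide + ketone ester. The mean was 7.53-fold lower with semaglutide than with vehicle. On the log2(normalized count + 1) scale the difference was -3.88 ± 0.73 (SE), the second most negative of the 12303 genes. It was -4.60 without mouse 13, when the mean of the other 4 mice was 51.4 ± 8.0 (SD, n = 4). All semaglutide mice lay below all vehicle mice in 7.45% of genes. The ketone ester group mean was 11.6-fold above the semaglutide mean, a log2 difference of 4.43 ± 0.81 (SE), or 5.15 without mouse 13, and the 4th most positive among all genes. No overlap in that direction was seen in 9.96% of genes. The ketone ester mean stood 0.55 ± 0.36 log2 units (SE) above vehicle with overlapping mice, so the order was semaglutide lowest, then vehicle and semaglutide + ketone ester, the last pair not separated beyond their spread.

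Dupd1 had its low values in the semaglutide mice, as Nrep did. Vehicle mice 1 to 5 had normalized counts of 434, 407, 718, 651 and 307. Semaglutide mice 13 to 17 had 203, 37.2, 33.3, 13.6 and 18.6. Semaglutide + ketone ester mice 19, 21 and 22 had 483, 422 and 524. The pattern resembled that of Nrep, with all semaglutide mice below all others and mouse 13 the highest of its group. Unlike Nrep, the ketone ester mice fell wholly inside the range of the vehicle mice. The lowest value, in mouse 16, came from 14 reads with a 95% Poisson interval of 7.43 to 22.8 normalized counts, and those of mice 17, 15 and 14 came from 25, 30 and 33 reads, and of these 4 mice only the intervals of mice 14 (25.6 to 52.2) and 16 did not overlap.

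The Dupd1 means were 503 ± 173 (SD, n = 5) for vehicle, 61.2 ± 79.9 (SD, n = 5) for semaglutide and 476 ± 51.6 (SD, n = 3) for semaglutide + ketone ester. The mean was 8.23-fold lower with semaglutide than with vehicle, and the log2 difference of -3.67 ± 0.70 (SE) was the 8th most negative. Without mouse 13 the difference was -4.28 and the semaglutide mean 25.7 ± 11.3 (SD, n = 4). With the ketone ester the mean was 7.79-fold above semaglutide alone, a log2 difference of 3.65 ± 0.67 (SE), or 4.26 without mouse 13, the 12th most positive. Against vehicle the ketone ester group differed by -0.02 ± 0.24 log2 units (SE), and the sign of that difference changed when vehicle mouse 3 (0.13), vehicle mouse 4 (0.09) or ketone ester mouse 21 (0.07) was left out. Vehicle and semaglutide + ketone ester were therefore not ordered for Dupd1, and semaglutide lay below both.

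Igfn1 had a different pattern and separated a different group. Its normalized counts were 647, 799, 552, 578 and 1089 in vehicle mice 1 to 5. Semaglutide mice 13 to 17 had 620, 2301, 2579, 2101 and 947. Semaglutide + ketone ester mice 19, 21 and 22 had 93.5, 65.2 and 207. Semaglutide mice 14, 15 and 16 were above every vehicle mouse, while mice 13 and 17 lay within the vehicle range. The ketone ester mice were below all 10 other mice. Even the lowest Igfn1 value, in mouse 21, rested on 54 reads, with a 95% Poisson interval of 49.0 to 85.1 normalized counts that did not reach the 207 of mouse 22.

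The means of Igfn1 were 733 ± 221 (SD, n = 5) for vehicle, 1710 ± 870 (SD, n = 5) for semaglutide and 122 ± 74.9 (SD, n = 3) for semaglutide + ketone ester. The semaglutide mean was 2.33-fold the vehicle mean, but the groups overlapped, and the log2 difference of 1.07 ± 0.44 (SE) was the 142nd most positive, so this gene's shift under semaglutide alone was modest beside those of Nrep and Dupd1. It was 1.39 without mouse 13. Between the ketone ester group and semaglutide alone, Igfn1 had the most negative difference of all 12303 genes, a log2 value of -3.77 ± 0.63 (SE) and a mean 14.0-fold lower, and -4.09 without mouse 13. All ketone ester mice lay below all semaglutide mice in 10.2% of genes. Igfn1 was the only one of the 3 in which the ketone ester mice also separated from vehicle, with a mean 6.02-fold lower and a log2 difference of -2.70 ± 0.52 (SE), the 5th most negative, in a comparison where 5.88% of genes had every ketone ester mouse below every vehicle mouse. The order of group levels was semaglutide + ketone ester lowest, with vehicle and semaglutide above it and overlapping each other.

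**Figure D1:**
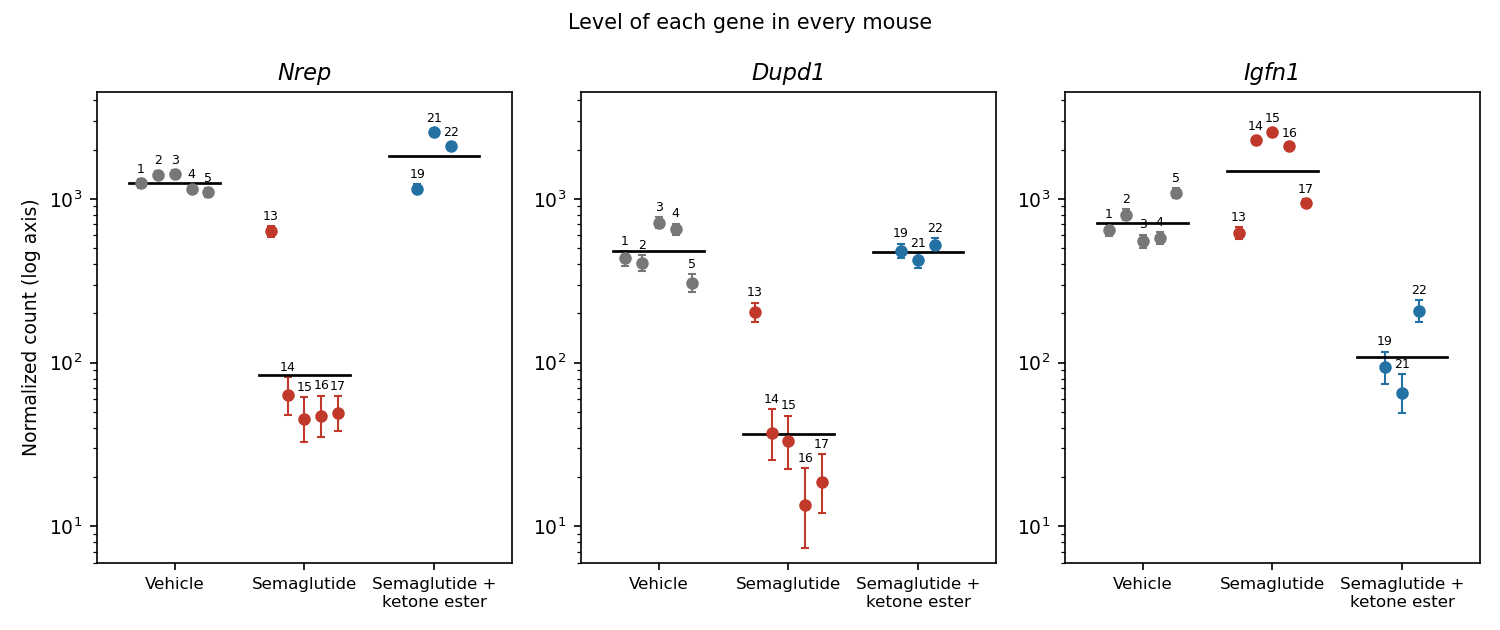
Normalized count (log axis) of Nrep, Dupd1 and Igfn1 in each mouse, with mouse numbers above the points, 95% Poisson intervals of the read count as error bars (counting error only) and a black line at the group mean taken on the log2 scale. Semaglutide mice 14 to 17 lie far below the other groups for Nrep and Dupd1 with mouse 13 between (633 and 203), whereas for Igfn1 the 3 ketone ester mice, at 65.2 to 207, are the lowest.

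The differences of the 3 genes can be set against all genes. In semaglutide against vehicle, limma called 3255 of 12303 genes (26.5%) at an adjusted p under 0.05, 1540 higher (12.5%) and 1715 lower (13.9%). In semaglutide + ketone ester against semaglutide it called 2546 (20.7%), 1234 higher (10.0%) and 1312 lower (10.7%). In semaglutide + ketone ester against vehicle it called 45 (0.366%), beside 1283 genes at an unadjusted p under 0.05 and 171 called by DESeq2. Large differences in the first and second of these comparisons share the semaglutide mice, so their opposite signs for Nrep and Dupd1 are not independent of each other. The comparison against vehicle shares its ketone ester mice with the second comparison, and Igfn1 was low in those mice in both.

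**Figure D2:**
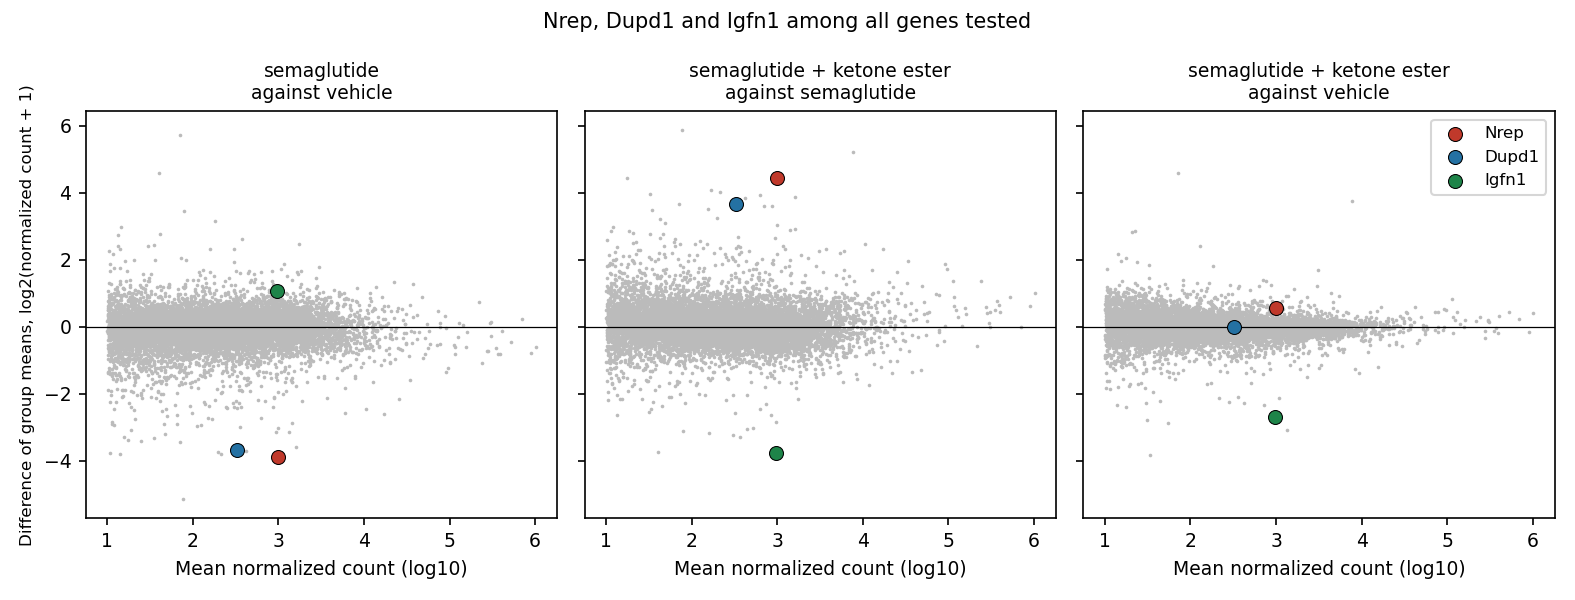
Difference of group means on the log2(normalized count + 1) scale against the log10 mean normalized count for the 12303 genes (gray), with Nrep, Dupd1 and Igfn1 colored, in 3 comparisons. Nrep and Dupd1 sit at -3.88 and -3.67 in the first panel and at 0.55 and -0.02 in the last, while Igfn1 sits at 1.07, -3.77 and -2.70.

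Levels between the genes can be compared only per length. Per kilobase of exon, Dupd1 was the highest of the 3 in vehicle muscle at 405 ± 140 (SD) normalized counts per kb, followed by Nrep at 323 ± 37.0 and Igfn1 at 81.5 ± 24.6. The ranges of Dupd1 and Nrep in vehicle mice were not separated by their SDs. These levels placed Dupd1 above 89.7% of 12237 expressed genes with a known exon length, Nrep above 87.3% and Igfn1 above 61.0%. With semaglutide Igfn1 stood first. Igfn1, at 190 ± 96.7 normalized counts per kb, stood above 78.9% of genes. Nrep and Dupd1, at 42.9 ± 66.6 and 49.3 ± 64.4, stood above 44.8% and 48.3%. Without mouse 13 they were at 13.1 ± 2.04 and 20.7 ± 9.14 normalized counts per kb, above 20.5% and 28.7% of genes, and Igfn1 was at 220.4 ± 79.7, above 81.6%. With semaglutide + ketone ester Igfn1 was at 13.5 ± 8.32 normalized counts per kb, above only 20.2% of genes. Nrep was at 498 ± 185 per kb and above 91.6% of genes, and Dupd1 at 383 ± 41.5 and above 89.3%.

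Spread within groups differed between the genes as well. In vehicle mice the coefficient of variation was 11.4% for Nrep, 34.4% for Dupd1 and 30.2% for Igfn1. In semaglutide mice it was 155% for Nrep and 131% for Dupd1, but was 15.5% and 44.2% without mouse 13. For Igfn1 it was 50.9% in semaglutide mice and 36.2% without mouse 13. In ketone ester mice Dupd1 was the most uniform at 10.8%, with Nrep at 37.2% and Igfn1 at 61.5%. Among the ketone ester mice, the highest and lowest counts differed by 2.23-fold for Nrep, 1.24-fold for Dupd1 and 3.17-fold for Igfn1.

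Across all 13 mice the levels of Nrep and Dupd1 moved together. Pearson's r between them on the log2 scale was 0.97 and Spearman's rho 0.81, and r was 0.97 without mouse 13. Of the other 12302 genes, 26 followed Nrep more closely than Dupd1 did. The points share their treatment groups. For deviations from the group means r was 0.86, and mouse 13 was by far the highest semaglutide mouse for both genes. That r rests largely on mouse 13 and was not computed without it. Igfn1 ran against Nrep (r = -0.74, rho = -0.81) and against Dupd1 (r = -0.67, rho = -0.76), and these values were -0.60 and -0.52 for deviations from group means. All these coefficients describe the 13 mice, which fall into clusters by treatment, and no test was made of them.

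Within groups the pairing was looser. The 5 vehicle mice ranked 3, 4, 1, 2, 5 from highest to lowest for Dupd1, exactly the reverse of their order for Igfn1, and 153 genes (1.24%) had that reverse order. For Nrep the vehicle order was 3, 2, 1, 4, 5, neither the order of Dupd1 nor its reverse. In the semaglutide group, mouse 13 was the highest for Nrep and Dupd1 and the lowest for Igfn1, while the orders of mice 14 to 17 did not match between any pair of the genes. In the ketone ester mice Dupd1 and Igfn1 had the same order, mouse 22 above 19 above 21, an order that 1972 of 12302 genes shared with Igfn1, and the Dupd1 intervals of mice 22 and 19 overlapped. Mouse 21, the highest for Nrep, was the lowest for both Dupd1 and Igfn1.

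**Figure D3:**
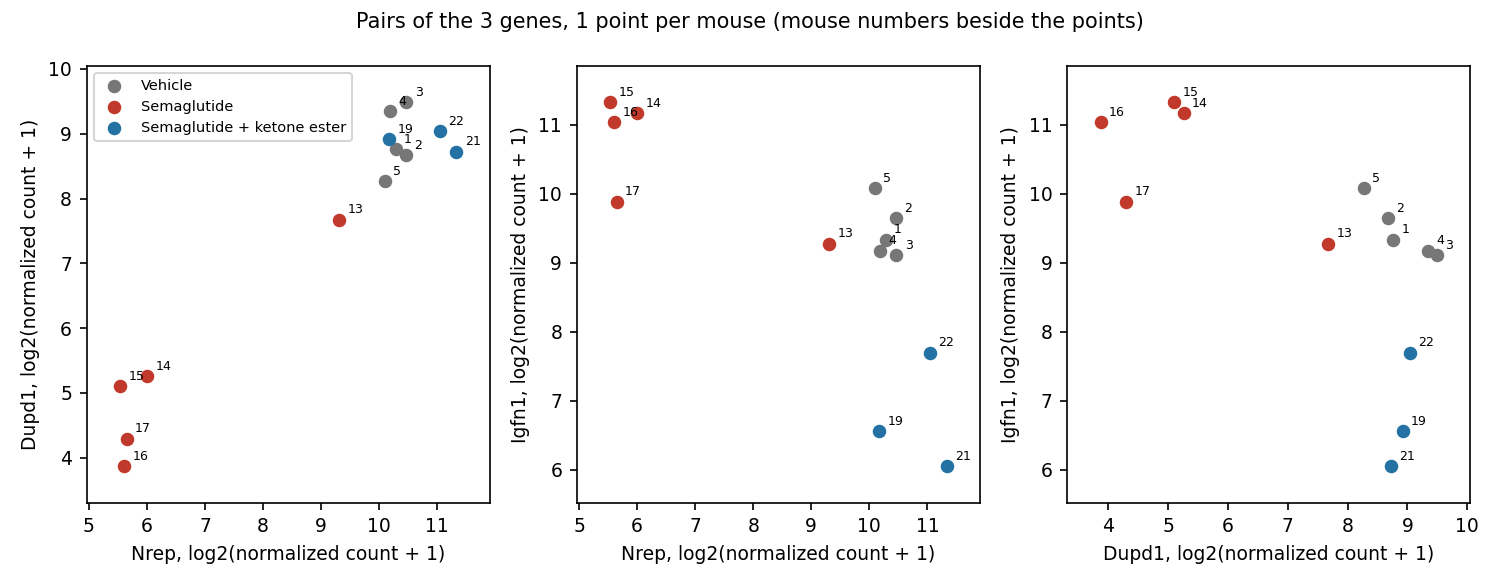
Each pair of the 3 genes on the log2(normalized count + 1) scale, with 1 point per mouse colored by group and labeled with the mouse number. Nrep and Dupd1 line up (r = 0.97) with mouse 13 between the semaglutide and the other mice, and Igfn1 sets the ketone ester mice apart at the bottom of both right-hand panels.

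Many genes shared the Nrep pattern. Pearson's r over the 13 mice was above 0.9 for 418 genes with Nrep and for 500 with Dupd1, but for only 4 with Igfn1. An r below -0.9 was found for 433, 300 and 1 genes. The 5 genes most like Nrep were Asb18 (r = 0.99), a muscle-enriched ubiquitin ligase adaptor, Myoz3 (0.99), a calsarcin that binds calcineurin at the Z-disc, Commd1 (0.99), a copper and NF-κB regulator, Itgb1bp2 (0.99), the muscle integrin partner melusin, and Eml1 (0.98), a microtubule-associated protein. None of them was shifted as far as Nrep itself. Myoz3 came nearest, with 4799 ± 389 normalized counts in vehicle mice (SD, n = 5), 1426 ± 1337 in semaglutide mice (SD, n = 5) and 5539 ± 437 in ketone ester mice (SD, n = 3), and it had 3799 in mouse 13. Asb18 had 511 ± 16.6, 193 ± 94.3 and 558 ± 66.8 in the same groups. When each mouse was left out in turn, the lowest r of these 5 genes with Nrep was 0.98, for Eml1.

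The genes with the highest correlations to Nrep within groups were different. Fam78b (r = 0.98), Hacd1 (0.98), a muscle fatty acid elongation enzyme, and Hras (0.97), the small GTPase, had the highest correlations of deviations from the group means. In these mouse 13 was higher than the average vehicle mouse as well. Hacd1 had 721 normalized counts in mouse 13, beside 434 ± 53.2 in vehicle mice (SD, n = 5), and Fam78b had 404 beside 125 ± 26.5. Over all 13 mice the r of Fam78b with Nrep was 0.64, and 0.88 without mouse 13. For Nrep mouse 13 lay at 9.31 log2 units, beside a semaglutide group mean of 6.42. The correlations within groups therefore rest largely on that mouse, and they were not computed without it.

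The genes most like Dupd1 were Extl3, a heparan sulfate synthesis enzyme, Neurl1a, an E3 ubiquitin ligase, Dhrs1, a short-chain dehydrogenase, Pde4a, a cyclic AMP phosphodiesterase, and Myoz3 again, each with r = 0.99. Pde4a was the most shifted beside Myoz3, with 1258 ± 118 normalized counts in vehicle (SD, n = 5), 362 ± 308 in semaglutide (SD, n = 5) and 1098 ± 133 in ketone ester mice (SD, n = 3). Extl3 varied far less than Dupd1, from 1402 ± 93.3 to 893 ± 177 and 1383 ± 81.7, but mouse by mouse it followed the same course. Within groups Nck2, an adaptor protein, Dvl1, of the Wnt pathway, and Smox, spermine oxidase, had the highest correlations to Dupd1, each with r = 0.98 and again with mouse 13 included. Smox also followed it over all mice (r = 0.97), with 8331 ± 2497, 2961 ± 2656 and 7466 ± 562 normalized counts in the 3 groups, and its vehicle mice spread as widely as those of Dupd1.

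Igfn1 had few close companions. Cerk, ceramide kinase, had the highest r both over all mice (0.96) and within groups (0.92). Its levels moved little, from 136 ± 17.8 normalized counts in vehicle (SD, n = 5) to 155 ± 30.7 in semaglutide (SD, n = 5) and 91.8 ± 13.9 in ketone ester mice (SD, n = 3). Next came Plekha1 (0.92), a phosphoinositide-binding adaptor, Elf3 (0.92), an ETS-family transcription factor present at no more than 31.1 normalized counts in any mouse, Arntl (0.92), the core clock factor BMAL1, and Ppp1r15a (0.89), the GADD34 subunit that directs dephosphorylation of eIF2α. Arntl had 290 ± 34.6 normalized counts in vehicle mice (SD, n = 5), 339 ± 85.1 in semaglutide mice (SD, n = 5) and 114 ± 30.0 in ketone ester mice (SD, n = 3), so it shared with Igfn1 the low level in the ketone ester mice. Ppp1r15a had 561 ± 80.7, 1135 ± 410 and 300 ± 49.0, with mouse 13 the lowest semaglutide mouse at 407, as it was for Igfn1. Within groups Lrch4 (0.90), a leucine-rich repeat protein, and Capn15 (0.88), a calpain, came after Cerk. These sets depended on the measure of likeness, since with Spearman's rho 0, 1 and 1 of the 5 genes were kept for Nrep, Dupd1 and Igfn1.

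**Figure D4:**
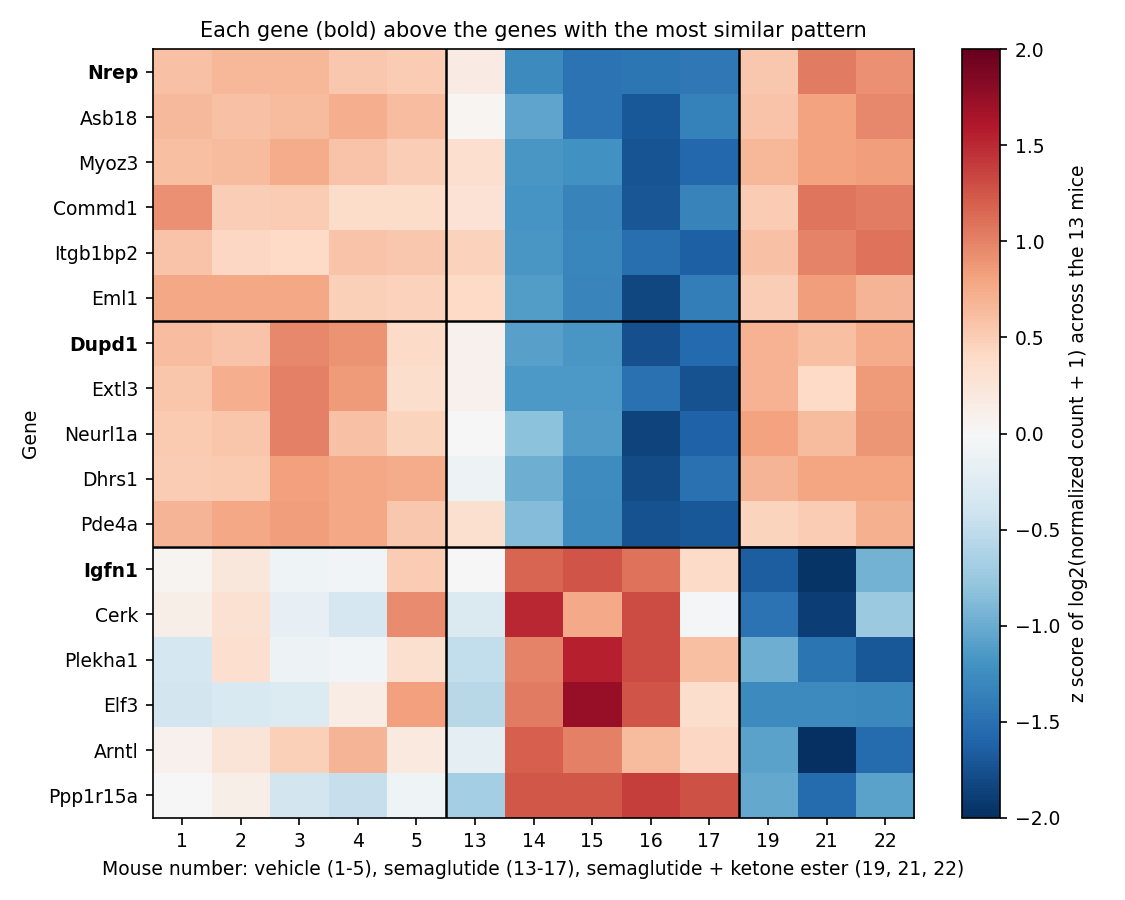
z scores of log2(normalized count + 1) across the 13 mice for Nrep, Dupd1 and Igfn1 (bold) and, under each, the 5 genes with the highest Pearson correlation to it (Myoz3, shared by Nrep and Dupd1, is drawn once). Mouse 13 is near the middle of the scale in the upper blocks while mice 14 to 17 are low, and in the lowest block the 3 ketone ester mice are low.

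The genes beside each of the 3 on the chromosome did not share shifts of their size. Dupd1 lies 18818 bases from Dusp13, another muscle phosphatase of the same family, which had 1977 ± 135 normalized counts in vehicle (SD, n = 5), 2311 ± 345 in semaglutide (SD, n = 5) and 1802 ± 281 in ketone ester mice (SD, n = 3). Dusp13 passed the limma threshold in neither semaglutide against vehicle (adjusted p = 0.151) nor semaglutide + ketone ester against semaglutide (adjusted p = 0.0531). On the other side of Dupd1, at 4059 bases, Kat6b differed by 0.20 log2 units with semaglutide (adjusted p = 0.109). Farther along, 227968 bases away, Adk, adenosine kinase, fell with semaglutide by 0.85 log2 units (limma adjusted p = 0.00016) and was 0.93 higher with the ketone ester than with semaglutide alone (adjusted p = 0.00058). Tmem9, 1808 bases from Igfn1, differed by 0.51 with semaglutide (adjusted p = 0.0826), where Igfn1 itself differed by 1.07. In semaglutide + ketone ester against semaglutide Tmem9 differed by -0.22, where Igfn1 differed by -3.77. Against vehicle Tmem9 differed by 0.28 in the ketone ester group, where Igfn1 differed by -2.70. The nearest tested neighbors of Nrep, Stard4 and Epb41l4a, lay 223157 and 332298 bases away and differed by -0.29 and -0.13 (adjusted p = 0.242 and 0.667).

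Dupd1 belongs to a family whose other members shifted far less and in both directions. Of 21 dual-specificity phosphatases tested, 5 rose and 3 fell with semaglutide (38.1%, against 26.5% of all genes), with differences from -0.94 to 1.28 and a median of -0.02. With semaglutide + ketone ester against semaglutide, 3 rose and 4 fell (33.3%, against 20.7% of all genes, and a median of -0.06). These counts dropped to 4 or 5 of 21 without vehicle mouse 3, 4 or 5 or semaglutide mouse 14, 15 or 17, and in the second comparison to 2 to 4 without semaglutide mouse 17 or ketone ester mouse 21 or 22. Dusp22 fell with semaglutide by 0.81 log2 units (SE 0.10, adjusted p = 9.89e-05), from 666 ± 55.1 to 381 ± 54.2 normalized counts (SD, n = 5 each). Dusp3, the founding atypical phosphatase of the family, fell by 0.46 (adjusted p = 0.00597). Dusp27, a muscle relative of Dupd1, rose by 0.49 (adjusted p = 0.00151) and was 0.58 lower with the ketone ester (-0.58, adjusted p = 0.00188). Dusp26 rose by 1.28 (adjusted p = 0.0277), a call that was lost without vehicle mouse 3 or 4 or any 1 of semaglutide mice 14 to 17 (adjusted p from 0.0501 to 0.0765). None of the 21 passed in semaglutide + ketone ester against vehicle.

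Kinases of the MAP kinase cascade and subunits of AMPK, the energy-sensing kinase, were called at shares near those of all genes, so their counts say nothing particular of them. Of 23 MAP kinase pathway kinases and AMPK subunits tested, 1 rose and 5 fell with semaglutide (26.1%, against 26.5% of all genes, median -0.10), and 4 rose and 0 fell in semaglutide + ketone ester against semaglutide (17.4%, against 20.7% of all genes, median 0.11, and 2 of 23 without semaglutide mouse 14, 16 or 17 or any 1 ketone ester mouse). Map2k6, which activates p38 MAP kinases, fell by 1.92 log2 units (SE 0.44, adjusted p = 0.00665), from 463 ± 108 to 174 ± 200 normalized counts (SD, n = 5 each). Like Nrep and Dupd1 it was highest in mouse 13 among the semaglutide mice, at 529. With the ketone ester it was 2.23 higher than with semaglutide alone (adjusted p = 0.00854), at 569 ± 104 (SD, n = 3). Mapk6 fell by 0.48 (adjusted p = 0.0062) and Prkag2, a regulatory AMPK subunit, by 0.59 (adjusted p = 0.0135). Map2k3, the other p38 activator, was 0.46 higher with the ketone ester than with semaglutide alone (adjusted p = 0.00451).

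Igfn1 belongs to the sarcomeric proteins built from immunoglobulin and fibronectin type III domains. Of 16 genes listed as relatives and tested, 3 rose and 1 fell with semaglutide (25%, against 26.5% of all genes, median 0.10). In semaglutide + ketone ester against semaglutide 2 rose and 2 fell (25%, against 20.7% of all genes, median 0.04). Without single mice these counts ran from 2 to 7 and from 1 to 6, the first being 7 without semaglutide mouse 13 and 2 without vehicle mouse 3 or 4 or semaglutide mouse 17, and the second 1 without ketone ester mouse 21 or 22 and 2 without semaglutide mouse 15 or 17. Mypn, myopalladin, rose with semaglutide by 0.48 (adjusted p = 0.00141), Myot, myotilin, by 0.47 (adjusted p = 0.0272), and Mylk fell by 0.53 (adjusted p = 0.00164). Mylk encodes the myosin light chain kinase of smooth muscle and non-muscle cells, not a sarcomeric protein. The summed smooth muscle and pericyte markers given below, mostly Rgs5, were also lower in every semaglutide mouse, a part in the result that was not tested. Mylk2, the skeletal muscle kinase, which lacks these domains, was 1 of the 2 that fell in the second comparison. The Myot call was lost without vehicle mouse 2, 3 or 4 or semaglutide mouse 14, 15 or 17 (adjusted p from 0.0525 to 0.0724). Mybph, a myosin-binding protein, was 2.26 higher with the ketone ester than with semaglutide alone (SE 0.46, adjusted p = 0.00417), at 6915 ± 1134 normalized counts (SD, n = 3) beside 1818 ± 1440 (SD, n = 5), a direction opposite to that of Igfn1 in the same mice.

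The known partners of Igfn1 at the Z-disc took their own course. Ky, the protease-like protein with which Igfn1 was found, fell with semaglutide by 1.28 log2 units (SE 0.32, adjusted p = 0.0106) and was 2.21 higher with the ketone ester than with semaglutide alone (SE 0.37, adjusted p = 0.00153). Its normalized counts were 5467 ± 1142 in vehicle mice (SD, n = 5), 2561 ± 1548 in semaglutide mice (SD, n = 5) and 10382 ± 1813 in ketone ester mice (SD, n = 3), so Ky was highest where Igfn1 was lowest. Flnc, filamin C, had 21568 ± 6281, 33829 ± 14562 and 15837 ± 6045 in the same groups and passed the threshold in neither comparison (adjusted p = 0.204 and 0.0581). Of 22 KY and filamin C partners and other Z-disc genes, 3 rose and 2 fell with semaglutide (22.7%, against 26.5% of all genes, median -0.05), and 3 rose and 3 fell in semaglutide + ketone ester against semaglutide (27.3%, against 20.7% of all genes, median 0.01). Without semaglutide mouse 13 these counts were 8 and 11, the first was 3 without vehicle mouse 3 or 4, and the second 2 without ketone ester mouse 21 or 22. Myoz3, named above for its likeness to Nrep, fell by 2.11 (adjusted p = 0.00092) and was 2.32 higher with the ketone ester (adjusted p = 0.0020). Actn3, the α-actinin of fast fibres, rose by 0.74 (adjusted p = 0.00668).

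The TGF-β ligands whose translation NREP promotes passed no threshold at the transcript level. Tgfb1 had 107 ± 14.4 normalized counts in vehicle mice (SD, n = 5), 114 ± 36.1 in semaglutide mice (SD, n = 5) and 85.0 ± 10.9 in ketone ester mice (SD, n = 3). Tgfb2 had 638 ± 107, 673 ± 298 and 512 ± 55.1, and Tgfb3 had 755 ± 78.2, 784 ± 147 and 751 ± 14.7. The partner gene Eif3b rose by 0.55 with semaglutide (SE 0.12, adjusted p = 0.00588) and was 0.66 lower with the ketone ester than with semaglutide alone (-0.66, SE 0.14, adjusted p = 0.00611), a course opposite to that of Nrep, with mouse 13 the lowest of its group at 1745. Of 20 genes in a list of TGF-β ligands, receptors and effectors that also held Eif3b, 5 rose and 3 fell with semaglutide (40%, against 26.5% of all genes, median -0.01), and 2 rose and 3 fell in semaglutide + ketone ester against semaglutide (25%, against 20.7% of all genes, median -0.09). Eif3b was 1 of the 5 and 1 of the last 3. Ltbp4, which binds latent TGF-β in the matrix, fell by 0.73 (adjusted p = 0.00041) and was 0.76 higher with the ketone ester (adjusted p = 0.00144). The mediators Smad2 and Smad4 went apart, Smad2 lower by 0.53 (-0.53, adjusted p = 0.00184) and Smad4 higher by 0.42 (adjusted p = 0.00365). Smad3 was lower as well (-1.09, adjusted p = 0.0095). The receptors Tgfbr1, Tgfbr2 and Tgfbr3 rose by 0.49, 0.52 and 0.53 (adjusted p = 0.0153, 0.0117 and 0.0192).

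Denervation-responsive genes were read beside the 3 because Nrep and Igfn1 are known from nerve and muscle injury. Of 21 tested, 8 rose and 4 fell with semaglutide (57.1%, against 26.5% of all genes, median 0.34), and 4 rose and 6 fell in semaglutide + ketone ester against semaglutide (47.6%, against 20.7% of all genes, median -0.05). These counts fell to 6 or 7 without vehicle mouse 1 or 4 or semaglutide mouse 16, and in the second comparison to 5 or 6 without semaglutide mouse 17 or ketone ester mouse 21 or 22. Chrnb1 and Chrna1, acetylcholine receptor subunits, rose by 0.93 (adjusted p = 3.72e-05) and 0.82 (adjusted p = 0.00024), and Sln, sarcolipin, rose by 3.15 (SE 0.44, adjusted p = 0.00025), from 35.1 ± 9.9 to 329 ± 111 normalized counts (SD, n = 5 each). The 4 that fell were Ache (-0.91, adjusted p = 0.0493), Colq (-0.64, adjusted p = 0.0320), Myh8 (-0.38, adjusted p = 0.0377) and Myh3 (-0.35, adjusted p = 0.0464). Myog did not pass (0.60, adjusted p = 0.131), and Ncam1 did not move (4.3e-05). None of the genes in the 6 lists passed in semaglutide + ketone ester against vehicle with limma, where 0.366% of all genes did.

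**Figure D5:**
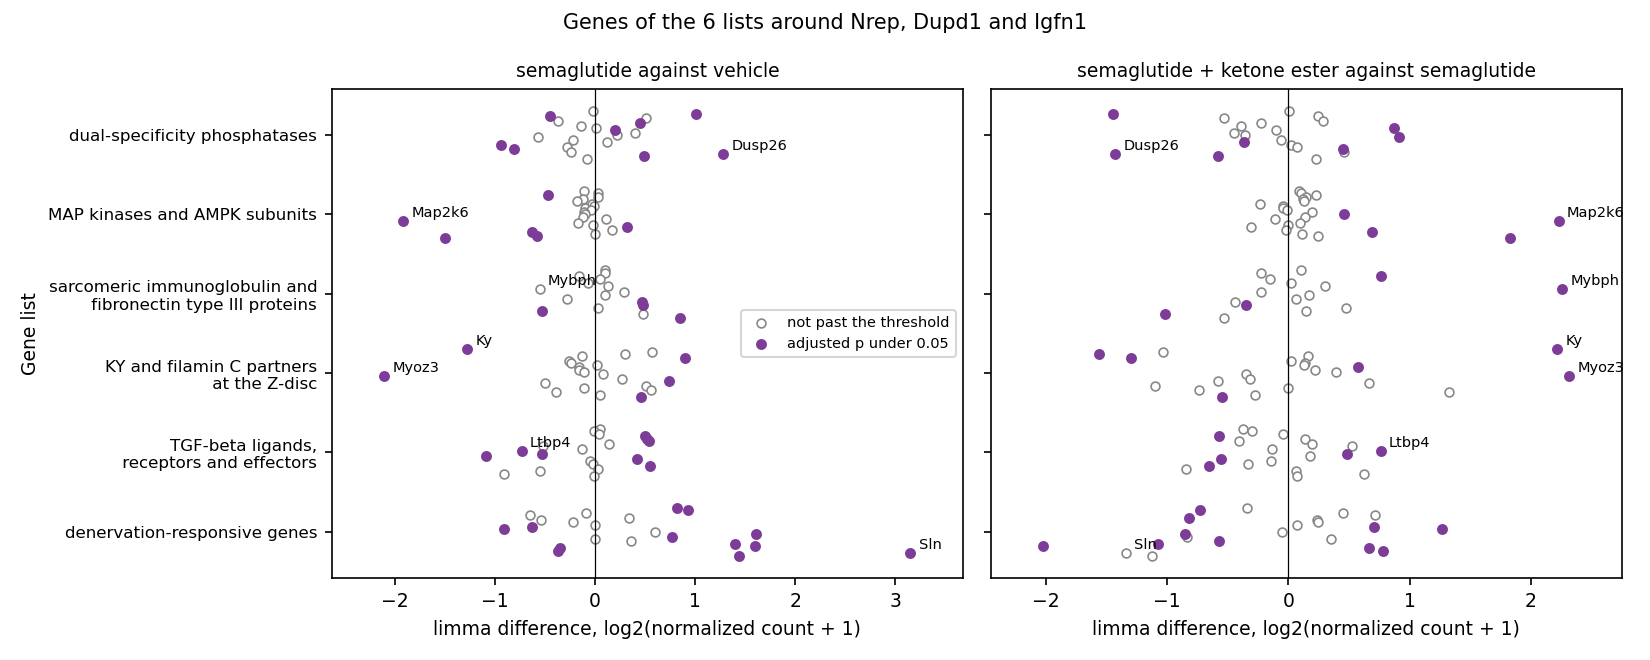
limma differences on the log2(normalized count + 1) scale for every tested gene of the 6 lists around Nrep, Dupd1 and Igfn1, filled where the adjusted p was under 0.05, in 2 comparisons. Most genes lie between -1 and 1, and few, among them Myoz3, Map2k6, Ky, Mybph and Sln, reach differences beyond 1.9 in either panel.

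Cell type markers were set beside the 3 genes, since in whole muscle fewer cells of a type and less RNA per cell cannot be told apart. Of the 4 smooth muscle and pericyte markers, all were detected, and their summed normalized counts ranged from 6316 to 8562 in vehicle, 3629 to 5567 in semaglutide and 6314 to 7161 in ketone ester mice, lower in every semaglutide mouse as Nrep was. Most of this sum was Rgs5, with means of 4782, 3147 and 4702. Acta2 (868, 592 and 700) and Myh11 (874, 617 and 792) were also lowest with semaglutide, while Tagln hardly moved (464, 435 and 453). The 5 fibroblast markers summed to 5120 to 11723, 4625 to 6371 and 6644 to 11019, with vehicle and semaglutide mice overlapping and ketone ester mice above all semaglutide mice. Dcn was the largest part of that sum, with means of 5914, 4715 and 5307 in the 3 groups. Col1a1 had means of 1472, 199 and 1476, and Col3a1 1581, 198 and 1147. Each of the 5 had its lowest mean with semaglutide. The 10 skeletal muscle fibre markers summed to 2537090 to 3027470, 1545610 to 2730080 and 3169110 to 3776680, so the ketone ester mice were above all others in this sum. Most of it was Myh4 (means of 1065360, 730113 and 1419670) and Acta1 (537613, 397837 and 732457). Ckm, Tnnt3, Tnni2 and Mylpf also had their highest means with the ketone ester. Mb (40148, 9069 and 28109), Myh2 (63038, 36311 and 58395) and Myh7 (9726, 6522 and 8072) were highest with vehicle, and Myh1 (71903.5, 85634.5 and 73376) with semaglutide. Mouse 13 was the highest semaglutide mouse for the fibre, fibroblast, tendon and red blood cell markers and the lowest for the satellite cell and endothelium markers. The 4 satellite cell markers summed to 415 to 543, 593 to 1245 and 442 to 496, higher in every semaglutide mouse through Cdh15, whose means were 406, 933 and 391, while those of Pax7 were 58.2, 51.0 and 53.2. The 6 tendon markers summed to 1277 to 6840, 747 to 2721 and 3353 to 4187. The sums of the 6 Schwann cell and nerve, 4 endothelium, 4 macrophage and 4 adipocyte markers overlapped between all groups compared. The 5 red blood cell markers summed to 1356 to 2291, 50.5 to 3148 and 2849 to 5558, with the ketone ester mice above all vehicle mice. No marker was at 0 in all mice, and the part of these markers in the levels of Nrep, Dupd1 and Igfn1 was not tested.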

How the data were processed

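RNA was taken from frozen gastrocnemius, and stranded mRNA libraries were read paired-end on a NextSeq2000. The authors aligned reads to mm10 with DRAGEN, and the submitters' processing notes also name DESeq2. The counter and gene annotation are not given in the sources used here. The deposited values are normalized counts (a signal scaled between libraries), and every value was a whole multiple of its column's step within 0.01 of a read (100% of values), so whole reads were recovered for intervals and count tests. Values were tested as log2(normalized count + 1) with limma 3.58.1 (trended moderated test, all 3 groups in 1 model) in genes with a mean of at least 10, with Benjamini-Hochberg adjusted p under 0.05, in R 4.3.3. This test was used in place of the study's 1-way analysis. edgeR 4.0.16 and DESeq2 1.42.0 on recovered reads, other scalings, filters, pseudocounts and left-out mice were alternatives. The limma step alone was tested on simulated data.

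Nrep, Dupd1, Igfn1 and the gene lists were chosen with earlier results of these data known. Named genes were the 5 with the highest correlation to each over 13 mice, the 3 highest within groups, in each list the 3 with the smallest p in semaglutide against vehicle and the 1 with the smallest in semaglutide + ketone ester against semaglutide, and known partners and relatives. Neighboring genes, Mylk2 and the cell type markers given by name were named after their values were seen. So were Ache, Colq, Myh3, Myh8, Myog, Ncam1, Smad3 and the Tgfbr genes, which were not followed singly in the alternatives. All libraries carried 1 batch label. Sequences are from RefSeq, which had an entry used here for 2 of the 3 genes. Each value's precision is limited by 3 to 5 mice per group.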

Additional observations from a re-analysis of the deposited data

Results flagged for a closer look

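In groups of 5 mice, a mouse was singled out when its distance to its nearest neighbor took an unusually large share of the group's whole range. Of 102 groups examined over 51 genes, 22 held such a mouse. For normally distributed values chance singles out about 1 in 20 groups, but the rule was applied to normalized counts without a log, for which that rate need not hold. Semaglutide mouse 13 accounted for 17 of the 22, and because these genes were partly chosen for likeness to Nrep and Dupd1, the 17 are not separate observations.

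Mouse 13 was highest for Nrep, where the gap took 0.97 of the range, and for Dupd1 (0.875). It was also highest for the genes that resembled Nrep, namely Asb18 (0.748), Myoz3 (0.875), Commd1 (0.785), Itgb1bp2 (0.883), Eml1 (0.819), Fam78b (0.889), Hacd1 (0.865) and Hras (0.863). Of the genes that resembled Dupd1, it was highest for Extl3 (0.725), Pde4a (0.765), Nck2 (0.763) and Smox (0.752), as it was for the kinase gene Map2k6 (0.857). It was lowest for Ppp1r15a (0.876), which resembled Igfn1, and for Eif3b (0.731). For Igfn1 itself mouse 13 was lowest but not singled out.

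The other 5 were scattered. Vehicle mouse 1 was highest for Commd1 (0.753), vehicle mouse 3 highest for Neurl1a (0.784), vehicle mouse 5 lowest for Smad2 (0.86), vehicle mouse 4 lowest for Eif3b (0.789) and semaglutide mouse 16 highest for Tgfb1 (0.739).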

How the results depend on the processing

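Of 171 recomputed differences of Nrep, Dupd1 and Igfn1, 167 kept their direction and moved by less than the spread between mice. That spread was the pooled SD of the groups compared, which mouse 13 widened where semaglutide mice were included. Leaving out a mouse of the group not compared cannot change a difference, so those recomputations among the 167 were unchanged by design. The other 4 of the 171 differences were all Dupd1 in semaglutide + ketone ester against vehicle, which was 0.01 with quantile normalization (0.0087) and ran from -0.18 to 0.13 when single mice were left out (0.13, 0.09 and 0.07 without vehicle mouse 3, vehicle mouse 4 and ketone ester mouse 21). With single mice left out, genes called ran from 2376 to 4611 in semaglutide against vehicle, from 1148 to 4119 in semaglutide + ketone ester against semaglutide and from 4 to 132 in semaglutide + ketone ester against vehicle, the highest each time without mouse 13. Sample weights gave 4986, 4436 and 318. Equal totals gave 4352 in the second comparison and split calls into 3351 higher and 985 lower in the first and 637 and 3715 in the second, beside 1540 and 1715, and 1234 and 1312. Fitting only the groups compared gave 1208 in the second comparison and 268 in the last, where DESeq2 gave 171. Among 780 alternatives for named list genes 745 kept their call, and the other 35 kept their direction but lost it, with the cause not tested. Besides those given above, equal totals ended the calls of Mapk6 and Prkag2 with semaglutide and of Dusp22, Map2k3 and Smad2 in semaglutide + ketone ester against semaglutide, and no filter on low values ended that of Actn3. In that second comparison the calls of Dusp22, Dusp26 and Mypn were also lost when only the groups compared were fitted or when single mice were left out, and that of Dusp26 with no filter. Of 414 recomputed list counts, 67 moved by over 1.5 times. No paired analysis was possible because no mouse number occurs in more than 1 group. Depth limits the order of semaglutide mice 14 to 17 for Nrep and, except for mouse 14 above mouse 16, for Dupd1.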
